A study of Mus musculus with 8 samples.

Results

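Energy transfer in the neonatal heart muscle cell was described here through 9 genes, taken by symbol from the deposited count table of cardiomyocytes on postnatal day 2. They are the creatine kinases Ckm, Ckmt2 and Ckb, the creatine transporter Slc6a8, the adenylate kinases Ak1 and Ak4, the adenine nucleotide carriers Slc25a4 and Slc25a5, and myoglobin, Mb. All 9 were found among the 48440 entries of the table, and all 9 were among the 13771 genes with enough counts to be tested. The cardiomyocytes were purified from hearts of C57BL6/J mouse pups, 1 male and 1 female heart from each of 4 litters, which gave 8 libraries: 4 male, 4 female and 2 per litter. The labels name no transgene and no treatment. The labels give each library's litter but no day of preparation, so a litter and the handling of its hearts cannot be told apart.

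A heart muscle cell makes ATP in its mitochondria and spends it at the sarcomere and the calcium pump. Adenine nucleotide carriers of the inner mitochondrial membrane exchange ATP for ADP. Mitochondrial creatine kinase then passes the phosphate to creatine, cytosolic creatine kinase returns it to ADP where it is used, and adenylate kinase recovers ATP from pairs of ADP. Myoglobin stores oxygen and carries it through the cytosol. As the heart matures, the brain-type kinase Ckb is known to give way to the muscle kinases Ckm and Ckmt2, and Slc25a5, the carrier of dividing cells, to Slc25a4, the carrier of heart and skeletal muscle.

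The libraries held 14226342 to 24910243 counts each. Values are given as CPM, counts per 1000000 counts of the TMM-scaled library size. Levels of single genes were compared with one another as CPM per kilobase of annotated exon, and marker lists were summed in CPM. The labelled cell type was checked against marker genes. Summed over 12 cardiomyocyte markers, levels were 76266 to 102547 CPM per library, against 45.6 to 290.1 CPM for 11 fibroblast markers, 26.9 to 233 CPM for 12 endothelial markers, 898 to 1517 CPM for 8 mural markers and 98.8 to 532 CPM for 8 erythroid markers. The mural sum was mostly Acta2 and Abcc9, at means of 751 and 459.7 CPM. No marker of these lists was at 0 in all libraries. The 2 libraries of litter 3 stood apart in several marker lists, and the counts of genes past the litter test are also given without them.

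The promoters of the cytosolic pair Ckm and Ckb and of Ckmt2 and Mb are shown because these 4 genes had the smallest adjusted p-values between litters. Each run holds the 250 bases before and the first 50 bases after a RefSeq start site on GRCm38.p6, and 8 of the 9 genes had such an entry. Capitals mark CANNTG, the E-box bound by basic helix-loop-helix factors, and a motif of MEF2 factors, CTA and TAG with 4 bases between them, both searched on each strand.
Ckm, chr7:19410844-19411143, plus strand: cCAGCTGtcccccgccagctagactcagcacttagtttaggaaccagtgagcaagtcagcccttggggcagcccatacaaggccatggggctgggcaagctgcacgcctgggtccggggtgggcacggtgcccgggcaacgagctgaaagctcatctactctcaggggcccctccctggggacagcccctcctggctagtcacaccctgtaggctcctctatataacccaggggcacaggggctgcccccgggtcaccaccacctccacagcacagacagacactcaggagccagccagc
Ckb, chr12:111672289-111672588, minus strand: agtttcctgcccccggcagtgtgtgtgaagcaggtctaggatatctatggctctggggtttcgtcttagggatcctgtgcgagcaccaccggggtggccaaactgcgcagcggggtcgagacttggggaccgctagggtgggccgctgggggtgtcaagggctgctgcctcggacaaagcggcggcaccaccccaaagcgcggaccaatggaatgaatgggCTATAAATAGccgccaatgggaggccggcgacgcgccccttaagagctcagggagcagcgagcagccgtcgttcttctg
Ckmt2, chr13:91876836-91877135, minus strand: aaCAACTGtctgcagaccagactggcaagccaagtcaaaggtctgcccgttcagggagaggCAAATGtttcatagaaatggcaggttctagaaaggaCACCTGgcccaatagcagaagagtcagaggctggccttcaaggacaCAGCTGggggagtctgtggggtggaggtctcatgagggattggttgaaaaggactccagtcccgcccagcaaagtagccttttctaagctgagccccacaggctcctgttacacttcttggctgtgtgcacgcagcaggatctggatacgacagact
Mb, chr15:77022738-77023037, minus strand: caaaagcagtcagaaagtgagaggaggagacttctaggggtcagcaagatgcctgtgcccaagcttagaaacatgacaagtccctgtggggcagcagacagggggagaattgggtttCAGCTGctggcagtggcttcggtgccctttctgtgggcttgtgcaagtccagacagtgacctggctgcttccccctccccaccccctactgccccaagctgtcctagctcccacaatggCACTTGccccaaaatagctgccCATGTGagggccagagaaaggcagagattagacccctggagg
The Ckm run holds 1 E-box, that of Ckmt2 holds 4 and that of Mb holds 3, while that of Ckb holds 0. An E-box of these letters occurs in 72.3% of all 32851 RefSeq promoters of this length. The Ckb run holds the 1 match to the MEF2 motif, which is found in 3.69% of promoters, and the motif TATAAA lies inside that match. TATAAA occurs in 13.6% of promoters and in none of the other 3 runs. Other motifs searched were CC and GG with 6 bases between them, the frame of the site of serum response factor (73.3% of promoters), with 5, 2, 2 and 4 partly overlapping matches in the runs as ordered, and AAGGTCA (4.72%) and ACGTG (19.6%), with 0 matches in all 4. The Mb run is the middle of 3 RefSeq starts of that gene, and which start the reads came from was not measured.

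On GRCm38, Ckm lies at chr7:19404776-19422841 and Ckmt2 at chr13:91853387-91876885, Ckb at chr12:111669361-111672338 and Ak1 at chr2:32621758-32635058. Ak4 lies at chr4:101419277-101466995, Slc25a4 at chr8:46206797-46211284 and Mb at chr15:77015487-77050670. Slc6a8 and Slc25a5 are on the X chromosome, at chrX:73673150-73682502 and chrX:36795651-36798807. Levels per length differed widely among the 9 genes. Mb stood first with 3443 ± 662 CPM per kilobase (SD, n = 8), followed by Slc25a4 with 2307 ± 169 and Ckm with 1007 ± 114 CPM per kilobase. Slc25a5 had 400.5 ± 24.6, Ak1 214 ± 12.7 and Ckmt2 134 ± 26.8 CPM per kilobase. Ckb had 36.1 ± 9.49, Slc6a8 33.4 ± 2.18 and Ak4, the kinase of the mitochondrial matrix, 3.71 ± 0.607 CPM per kilobase. Neighbours in this order did not overlap in their ranges over libraries, except for Mb with Slc25a4 and Ckb with Slc6a8. Mb reached the range of Slc25a4, 2064 to 2499 CPM per kilobase, only in the male of litter 3, with 2318 CPM per kilobase, and lay just above it in the female, with 2504. The order of Ckb and Slc6a8 depended on the length used: with the longest transcript in place of all exons, Ckb had 36.8 and Slc6a8 43.8 CPM per kilobase.

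**Figure D1:**
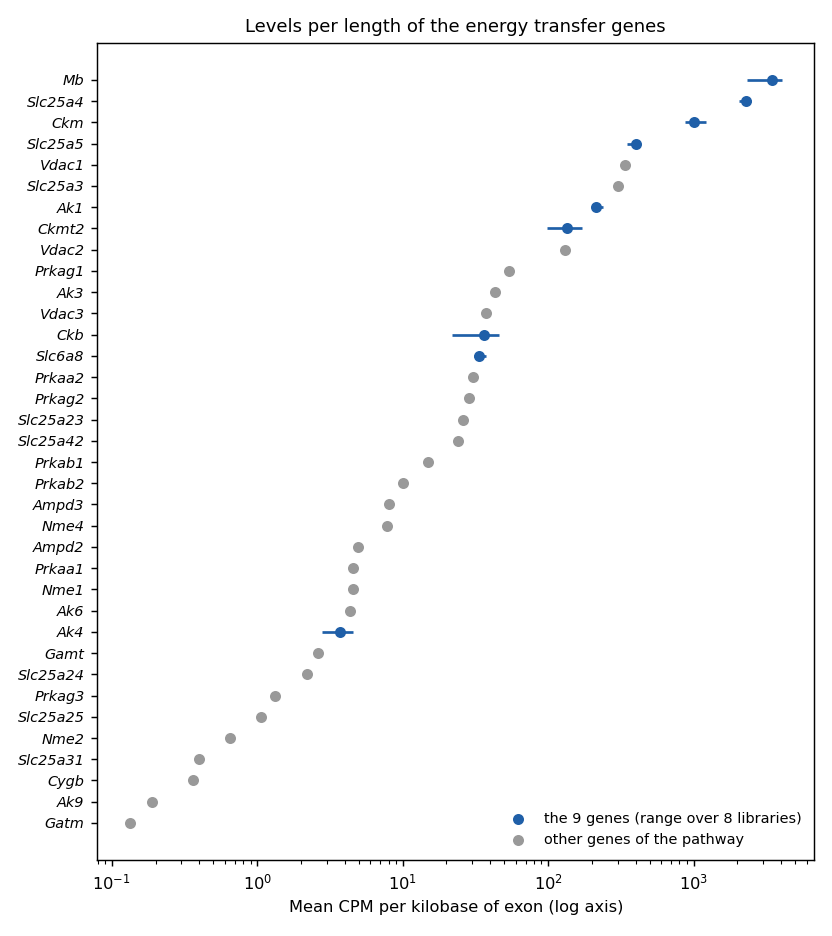
Mean CPM per kilobase of exon on a log axis for the 9 genes (blue, bars give the range over 8 libraries) and for other genes of the pathway at 0.1 or more (grey). Mb, Slc25a4 and Ckm lie at the top, with 3443, 2307 and 1007 CPM per kilobase, and Ak4 lies at 3.71.

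Other genes of the pathway gave these levels a frame. The mitochondrial phosphate carrier Slc25a3 had 302 CPM per kilobase and the outer membrane channels Vdac1 and Vdac2 had 339.5 and 129.8, all below Slc25a5. This order depended on the lengths. Without division by length, Slc25a3 and Vdac1 had 1677 and 889.5 CPM, above Slc25a5 at 659 CPM, and Vdac2 had 619 CPM. Among the enzymes that make creatine, Gatm had 0.133 and Gamt 2.61 CPM per kilobase, beside 33.4 for the transporter Slc6a8. The second mitochondrial creatine kinase, Ckmt1, had 0.123 ± 0.0832 CPM. Slc25a31, the carrier known from testis, had 0.841 ± 0.406 CPM. Of the other globins, Cygb had 0.844 ± 0.493 CPM and Ngb 0.101 ± 0.0844 CPM.

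The muscle isoforms made up most of the creatine kinases and carriers at this age. Per length, Ckm accounted for 85.4% ± 3.09 of all creatine kinase transcripts, Ckmt2 for 11.5% ± 2.73 and Ckb for 3.06% ± 0.733 (SD, n = 8). Of the adenine nucleotide carriers, 85.2% ± 0.487 was Slc25a4 and 14.8% ± 0.488 Slc25a5. These shares compare mRNA levels, and protein was not measured.

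The share of Slc25a5 among the 2 carriers was close to constant. It was 14.9%, 15.5%, 15.6% and 14.3% in the males of litters 1 to 4 and 14.6%, 14.4%, 14.6% and 14.5% in the females. Slc25a4 thus exceeded Slc25a5 between 5.43-fold and 6.00-fold in every library. The ratio was 0.06 lower on the log2 scale in males than in females (log2 ratios of 2.50 and 2.55; exact permutation p = 0.2, two-sided over 70 splits, 0.3 after adjustment over 6 tests), and the sexes overlapped. Without the male of litter 4 the difference was -0.09 and its unadjusted exact permutation p was 0.0286. Litters took 49.5% of the variance left after removal of the sex means (exact permutation p = 0.458, one-sided over 24 matchings of females to males; adjusted 0.55).

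The share of Ckb among the 2 cytosolic creatine kinases ran from 2.44% to 4.68%. The males had 4.68%, 3.84%, 2.44% and 2.96% in litters 1 to 4, and the females 4.23%, 4.24%, 2.90% and 2.46%. All 4 libraries of litters 1 and 2 lay above all 4 of litters 3 and 4, at litter means of 4.45% and 4.04% against 2.67% and 2.71%. Ckm exceeded Ckb 20.4-fold to 39.9-fold. Litters took 91.1% of the sex-centred variance of the log2 ratio, a share that other matchings of females to males also reached (exact permutation p = 0.167; smallest possible 0.0417; adjusted 0.3). Without litter 3 it was 92.9% (exact permutation p = 0.333; smallest possible 0.167). Between the sexes the log2 ratio differed by -0.01, male minus female (4.84 in both; exact permutation p = 0.971), and this difference changed sign with the library left out, from -0.17 to 0.16.

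Ak4 relative to Ak1 was counted as a share, although the 2 kinases sit in different compartments. Ak4 took 2.18%, 1.95%, 1.60% and 1.82% in the males of litters 1 to 4, and 1.90%, 1.58%, 1.38% and 1.28% in their female littermates. The male had the larger share in each of the 4 litters, while the ranges of the sexes overlapped. The log2 ratio of Ak1 to Ak4 was 5.71 in males and 6.02 in females, a difference of -0.31 (exact permutation p = 0.114, adjusted 0.3). Within litter pairs the exact permutation p was 0.125, the smallest that 16 sign changes can give. Litters took 89.4% of the sex-centred variance (exact permutation p = 0.125, adjusted 0.3).

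**Figure D2:**
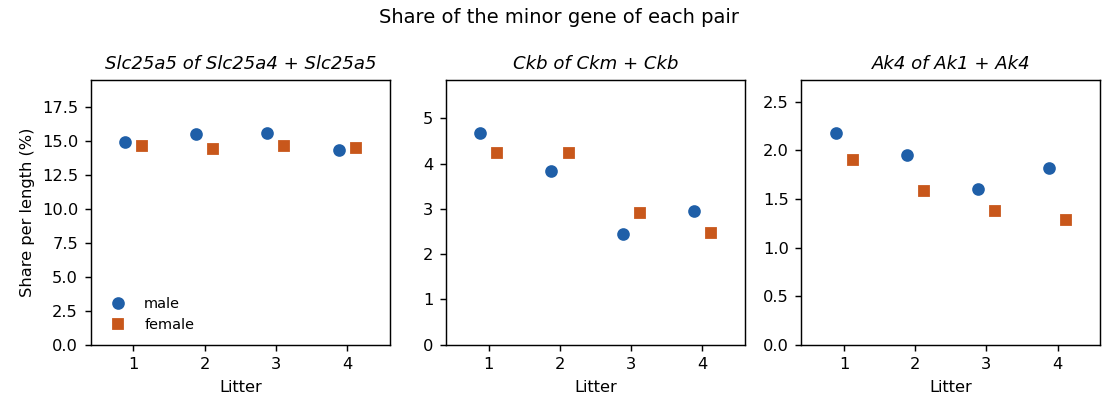
Share per length of Slc25a5, Ckb and Ak4 within each pair, in percent, by litter, for males (circles) and females (squares), 1 point per library. Slc25a5 stays between 14.3% and 15.6%, Ckb is higher in litters 1 and 2 than in litters 3 and 4, and Ak4 is higher in the male of each litter.

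Male and female cardiomyocytes were compared first gene by gene. None of the 9 genes passed an adjusted p-value of 0.05 in edgeR's quasi-likelihood test, in a comparison where 0.0436% of all tested genes did. None of the 9 had an unadjusted p-value under 0.05, which 306 of all 13771 tested genes had, and DESeq2 called 0 of the 9 as well. The levels of the sexes overlapped for every one of the 9, and the share of all genes for which they did was not counted. With litter as a block, 0 of 9 passed too, against 0.211% of all genes.

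Ak4 came nearest to a difference by sex. The males had 21.1, 19.2, 15.9 and 19.6 CPM in litters 1 to 4, and the females 18.7, 16, 13.1 and 14.3 CPM. The male was above its sister in all 4 litters. Its log2 difference, male minus female, was 0.28 (SE 0.13, edgeR adjusted p = 1), and with the litter block 0.29 (SE 0.08, unadjusted p = 0.00276, adjusted p = 0.244). Of the windows of its transcript, 8.1% also occur in the pseudogene Ak3l2-ps, which had at most 0.0688 CPM.

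In each of the 4 litters the male had less Ckm than its sister, at 2697, 2892, 2552 and 3127 CPM in males of litters 1 to 4 and 3057, 3009, 2574 and 3556 CPM in females. The difference was -0.11 (SE 0.11, edgeR adjusted p = 1), or -0.11 (SE 0.05, adjusted p = 0.435) with the block, where the approximate 95% interval was -0.21 to -0.01 and the unadjusted p 0.0531. This difference did not pass after adjustment over all genes, and the normal interval, which leaves out 0, is narrower than the F test gives. Without the block, omission of 1 library moved the difference to -0.03 (litter 4, female), -0.07 (litter 3, male), -0.17 (litter 4, male) or -0.20 (litter 3, female). Ak4 was the other of the 9 genes with 1 direction in all 4 litters. The share of all genes with 1 direction in all litters was not counted. Slc25a5 and Slc6a8 lie on the X chromosome. Slc25a5 differed by 0.02 (SE 0.08) and Slc6a8 by 0.06 (SE 0.08), male minus female, with approximate 95% intervals of -0.14 to 0.19 and -0.10 to 0.21. For Mb the difference was below 0.01 in size (SE 0.19), with an interval of -0.37 to 0.37. With the litter block the interval was -0.11 to 0.09. Atrial markers, which summed to 409 to 1369 CPM in males and 233 to 1656 CPM in females, are given beside these values. Their median log2 difference was 1.01, higher in males, 0 of 9 passed by sex with or without the litter block, and the largest sum was in a female. Of 11 fibroblast markers, 6 passed by sex with the litter block, against 0.211% of all genes, and 0 without it, all 6 higher in males. Of 12 endothelial markers 1 passed with the block, Cldn5, lower in males, and 0 without it, at a median of -0.72. The part of these lists in the values above was not tested.

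**Figure D3:**
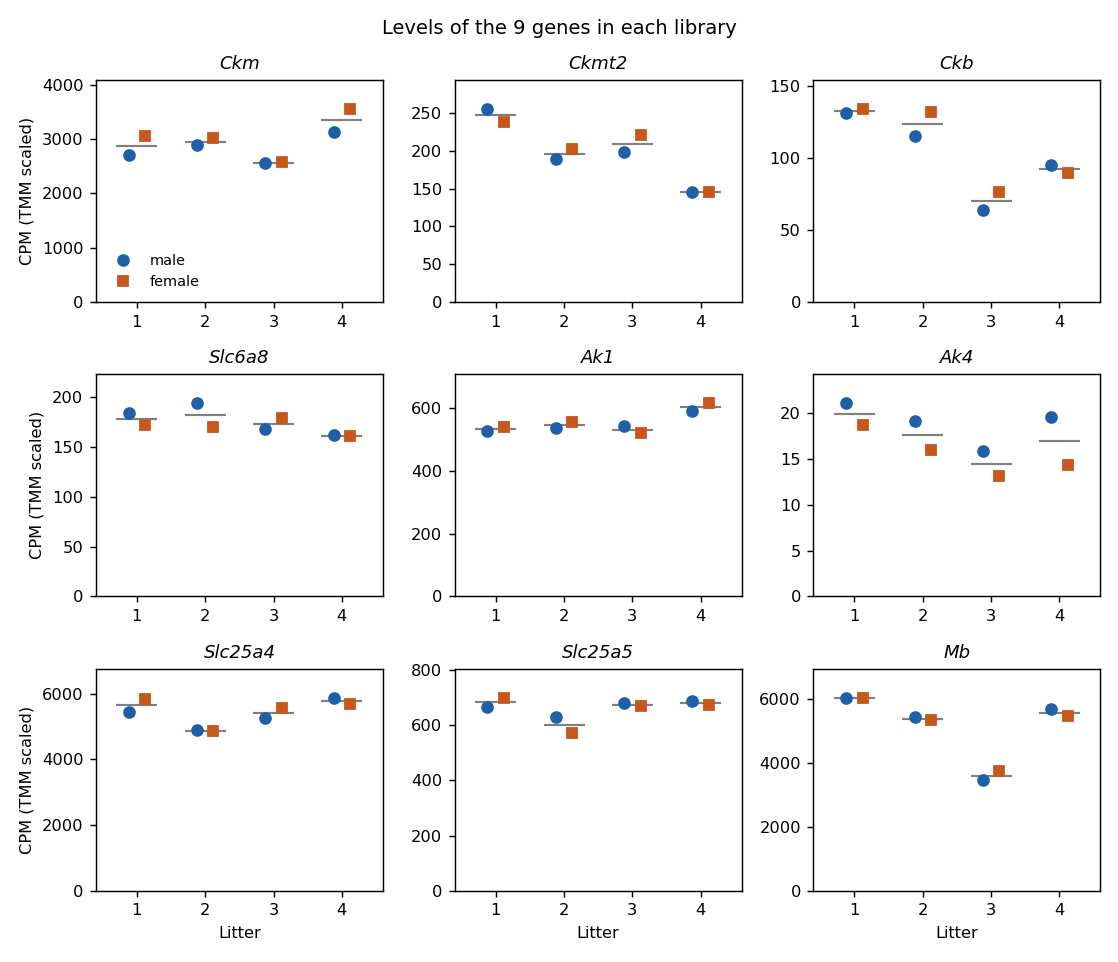
CPM after TMM scaling of each of the 9 genes by litter, males as circles and females as squares, 1 point per library, with a grey line at each litter's mean and every axis starting at 0. Mb and Ckb drop in litter 3, Ckmt2 drops in litter 4 and the carriers change little.

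Litters differed in 5 of the 9 genes. Ckb, Mb, Ckmt2, Ckm and Ak4 passed the litter test at an adjusted p-value of 0.05, in which 32.1% of all tested genes did. The median range over litters was 0.38 on the log2 scale for the 9 genes and 0.37 for all genes tested. Slc25a4, Slc25a5, Ak1 and Slc6a8 did not pass. Without litter 3 the count was 2 of 9, Ckb and Ckmt2, while 13.7% of all genes passed. Without the female of litter 3 alone it was 3, while the number of all genes went from 4427 to 3048.

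Ckb, the brain-type cytosolic kinase, had the largest range of the 9. The males had 131, 115, 63.5 and 94.9 CPM in litters 1 to 4, and the females 134, 132, 76.4 and 89.2 CPM. Litters 1 and 2 were above litters 3 and 4 with no overlap. The range over litters was 0.93 on the log2 scale, or 1.91-fold (edgeR adjusted p = 0.000102), and 0.53 without litter 3 (adjusted p = 0.00404). Against the mean of the other 3, litter 1 was higher by 0.52 (SE 0.07, adjusted p = 0.000711), litter 2 by 0.38 (SE 0.07, 0.0104), and litter 3 was lower, at -0.72 (SE 0.08, 5.4e-05).

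Markers of other cells and of division also differed between litters. In litter 3, fibroblast markers summed to 45.6 to 67.6 CPM against 135 to 290.1 CPM in the other litters, with 9 of 11 lower at the threshold. All 14 markers of the G2/M phase were lower as well, at 82.9 to 119.7 CPM summed against 232 to 542 CPM. Endothelial markers summed to 30.5 to 32.1 CPM, within the 26.9 to 233 CPM of the others, with 9 of 12 lower at the threshold. These shares stand against 14.8% of all genes lower in litter 3. Mural markers summed to 898 to 921 CPM in litter 3 and 1338 to 1517 CPM elsewhere, with 5 of 8 lower at the threshold. That sum was mostly Acta2 and Abcc9. Acta2 had 356 CPM in litter 3 and 832 to 966 CPM by litter elsewhere. Abcc9 had 479 CPM in litter 3 and 411 to 487 CPM by litter elsewhere. Atrial (1369 to 1656 against 233 to 891 CPM), Schwann (201 to 228 against 145 to 164 CPM) and erythroid markers (185 to 532 against 98.8 to 247 CPM) summed higher in litter 3, with overlap for the erythroid list. Of 9 atrial markers 3 were higher there and 1, Nr2f2, lower (-1.36, SE 0.30), and the sum was mostly Nppa, at 1343 CPM in litter 3 and 256 to 326 CPM by litter elsewhere. Of the 3 Schwann markers tested 1 was higher, and of the 6 erythroid markers tested 2. The share of all genes higher in litter 3 was not counted, so the counts of higher markers cannot be set against it. In litter 1, where Ckb was higher, all 14 G2/M markers and 3 of 11 fibroblast markers were higher, against 7.86% of all genes. In litter 2, also higher in Ckb, all 12 endothelial, 9 of 11 fibroblast and 7 of 14 G2/M markers were higher, against 3.3% of all genes. In litter 4, with Ckb at 92.1 ± 4.09 CPM (SD, n = 2), 8 of 11 fibroblast markers were higher and 0 lower, against 4.71% of all genes higher. The part of these cells in the level of Ckb was not tested, and in whole preparations fewer cells of a type and less RNA per cell cannot be told apart.

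Mb, myoglobin, had the smallest p-value of the 9 genes in a comparison of 1 litter with the others. The males had 6005, 5420.2, 3458 and 5660.3 CPM in litters 1 to 4, and the females 6032, 5318, 3736 and 5467 CPM. Both libraries of litter 3 lay below all 6 others, which were within 5318 to 6032 CPM. In litter 3 the change was -0.65 on the log2 scale (SE 0.06, edgeR adjusted p = 1.81e-05), or 0.637 of the mean of the other litters. Litter 1 was higher by 0.34 (SE 0.06, adjusted p = 0.00245). The range over litters was 0.74 (adjusted p = 0.000111), and without litter 3 it was 0.17 (adjusted p = 0.228). Of the exon bases of Mb, 31.9% are also covered by antisense genes, mainly Gm49540, and whether the counting used strand is not given in the sources used here.

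Contractile genes of the cardiomyocyte list are set beside Mb because 7 of its 12 members were also lower in litter 3, where 14.8% of all genes were. The alpha-cardiac actin gene Actc1 changed by -0.67 on the log2 scale and Myh6, the fast heart myosin, by -0.61 (edgeR adjusted p = 4.83e-05 and 0.000622). Myh7, the slow heart myosin and a member of the ventricular list, was higher by 2.74 (SE 0.08, adjusted p = 5.13e-09). Of the 5 genes of that list 3 were higher and 2 lower, and the share of all genes higher in litter 3 was not counted. Tnnt2, Pln, Ryr2 and Ttn had values from 0.02 to 0.16 and Tnni3 of -0.15, and these 5 did not pass. The cardiomyocyte list summed to 76266 to 77372 CPM in litter 3 and 90796 to 102547 CPM elsewhere. In litter 1, where Mb and Ckmt2 were higher, 5 of its 12 members were higher and 0 lower, against 7.86% of all genes higher. The part of this list in the levels of Mb and Ckmt2 was not tested.

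**Figure D4:**
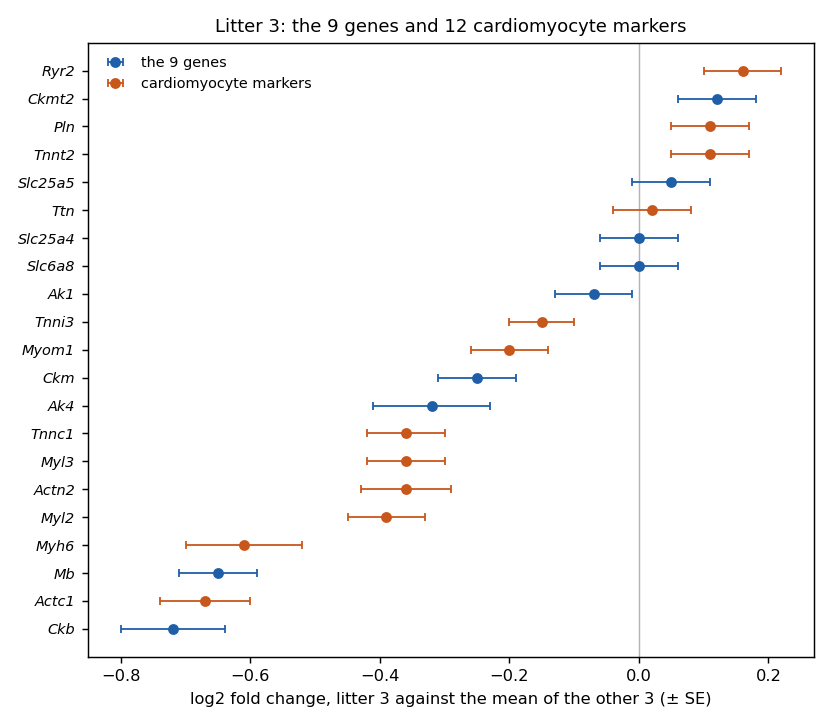
Log2 fold change of litter 3 against the mean of the other 3 litters, with standard errors, for the 9 genes (blue) and 12 cardiomyocyte markers (orange). Mb at -0.65 lies between Actc1 and Myh6, while Slc25a4, Slc25a5 and Slc6a8 lie within 0.05 of 0 and Ckmt2 at 0.12.

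Ckmt2, the creatine kinase of the sarcomeric mitochondria, followed another order of litters than the cytosolic kinases. The males had 256, 189, 198 and 146 CPM in litters 1 to 4, and the females 239, 202, 221 and 145 CPM. Litter 1 was the highest and litter 4 the lowest, and neither overlapped any other litter. Litter 1 was higher by 0.45 (SE 0.06, edgeR adjusted p = 0.000704) and litter 4 lower, at -0.57 (SE 0.07, 0.00119), which is 0.674 of the mean of the others. Its range of 0.76 (adjusted p = 0.000234) was still 0.35 without litter 4 (adjusted p = 0.0125). The share of mitochondrial genes in the counts, 18.5% in the male of litter 4 and 13.4% to 15.2% in the other 7 libraries, was high in the library of that litter that had 146 CPM, and its female littermate had 145 CPM at 15.2%.

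Ckm, the muscle cytosolic kinase, moved the other way in litter 4. It averaged 2877 ± 254 CPM in litter 1, 2950.3 ± 82.4 in litter 2, 2563 ± 15.8 in litter 3 and 3341 ± 303 in litter 4 (SD, n = 2). Litter 4 was higher by 0.26 (SE 0.06, edgeR adjusted p = 0.018), and litter 3 was lower, at -0.25 (SE 0.06, 0.00915). Of the 12 cardiomyocyte markers, 6 were higher in litter 4, against 4.71% of all genes, and 2, Ryr2 and Ttn, lower; their part in the level of Ckm was not tested. When TMM factors were left out the change in litter 4 was 0.18 (adjusted p = 0.0693). The litter range of 0.38 (adjusted p = 0.0113) was not past the threshold without the female of litter 3 (range 0.31, 0.0742), without litter 3 (range 0.22, 0.102) or without litter 4 (range 0.19, 0.0685). Ckmt2 made up 13.9% ± 1.58 of creatine kinase transcripts per length in litter 1, 11.1% ± 0.129 in litter 2, 13.5% ± 0.788 in litter 3 and 7.71% ± 0.665 in litter 4 (SD, n = 2). Exons of A930016O22Rik on the opposite strand cover 15.5% of the exon bases of Ckm; that gene had 1.75 to 3.66 CPM.

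Ak4 averaged 19.9 ± 1.67 CPM in litter 1, 17.6 ± 2.24 in litter 2, 14.5 ± 1.98 in litter 3 and 16.9 ± 3.77 in litter 4 (SD, n = 2), with 190 to 525 counts per library. Litter 1 was higher by 0.30 (SE 0.09, edgeR adjusted p = 0.0404) and litter 3 lower, at -0.32 (SE 0.09, 0.0229). The range of 0.46 (adjusted p = 0.0348) lost the call without any single library of litter 1 (male 0.0798, female 0.175) or of litter 3 (male 0.121, female 0.0861). It also lost it without litter 1 (0.184) or litter 3 (0.246), without the sex term (0.212) and in DESeq2 (0.152). The range itself was 0.39 to 0.55 in these fits, except for 0.29 without litter 1 and 0.25 without litter 3.

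The other 4 genes kept within narrow limits. Slc25a4 had 4856 to 5879 CPM, with its lowest values in both libraries of litter 2 (4882 and 4856 CPM), and a range over litters of 0.25 (edgeR adjusted p = 0.0604). Its litter test passed without the female of litter 4 (0.0271), without litter 4 (0.0373), with mitochondrial genes left out (0.0423), without the filter (0.000685) and in DESeq2 (0.0224). Slc25a5 had 573 to 700.1 CPM and was also lowest in litter 2, at 629 and 573 CPM (range 0.18, adjusted p = 0.138). Across the 8 libraries the log2 levels of the 2 carriers had a Pearson correlation of 0.859, given as a description of points that share library and scaling. 4 other annotated genes share 12% of the sequence windows of Slc25a5, among them the processed pseudogenes Gm5560 and Gm5529, with at most 0.434 and 0.391 CPM. Ak1 had 519.7 to 616 CPM, highest in litter 4 at 603 ± 17.5 CPM (range 0.18, adjusted p = 0.124), and Slc6a8 had 161 to 194 CPM (range 0.17, adjusted p = 0.295). Leaving out a library or a litter gave ranges of 0.09 to 0.3 for Slc25a4 and 0.02 to 0.26 for Slc25a5. Those of Ak1 ran from 0.03 to 0.24 and those of Slc6a8 from 0.06 to 0.26.

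**Figure D5:**
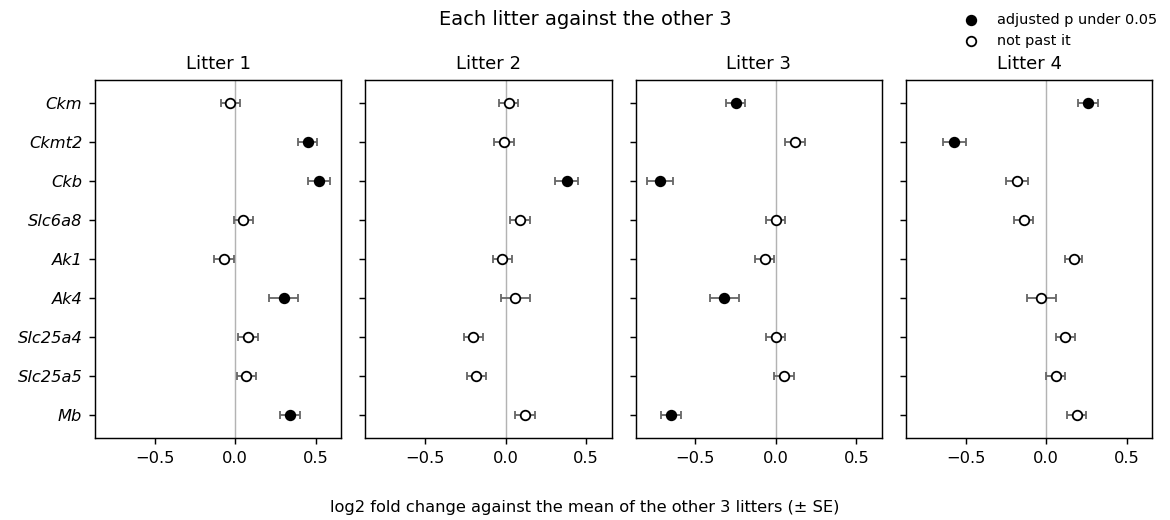
Log2 fold change with standard error of each of the 9 genes in each litter against the mean of the other 3, filled where the adjusted p-value is under 0.05. Litter 1 has 4 filled points above 0, litter 2 has 1, litter 3 has 4 below 0, and litter 4 has Ckm at 0.26 and Ckmt2 at -0.57.

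Counted by litter, 4 of the 9 genes were higher in litter 1 (Ckmt2, Ckb, Ak4 and Mb), where 7.86% of all genes were. In litter 2 only Ckb was higher, against 3.3% of all genes. In litter 3, Ckm, Ckb, Ak4 and Mb were lower, which is 4 of 9 against 14.8% of all genes, and 3 of 9, Ckm, Ckb and Mb, had both libraries of litter 3 below all others, as did 16.4% of all genes. In litter 4, Ckm was higher, against 4.71% of all genes, and Ckmt2 lower, against 5.8%. These 4 comparisons share libraries. With RLE or library size alone, every one of these 11 calls kept its direction, and Ckm in litter 4 lost the threshold with library size alone. With library size alone, Ckb (-0.26, adjusted p = 0.0365) and Slc6a8 (-0.22, 0.0489) were also lower in litter 4.

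Other genes of the pathway were counted in the same litter test, which 9 of 26 passed, or 34.6%, near the 32.1% of all genes. Without litter 3 only Prkaa2 passed (adjusted p = 0.0229), which is 3.85% against 13.7% of all genes. Of 6 other adenylate kinases 3 were tested and 1 passed, Ak6, lower in litter 3 and higher in litter 1 by 0.41 (SE 0.11), with 59.1% of its exon bases inside other genes. Of 7 AMP deaminases and nucleoside diphosphate kinases 5 were tested and 4 passed. Ampd3, an AMP deaminase, had means of 51.5 ± 0.468, 54.3 ± 3.34, 30.6 ± 1.14 and 43.9 ± 9.15 CPM by litter, from 1 to 4 (SD, n = 2; adjusted p = 0.0011 in edgeR), and was lower in litter 3, at -0.69 (SE 0.10), and higher in litters 1 and 2, by 0.30 (SE 0.09) and 0.40 (SE 0.09). Nme1 was lower in litter 3, at -0.41 (SE 0.09), and higher in litter 1 by 0.37 (SE 0.08). Nme4, its mitochondrial relative, was higher in litter 3 by 0.50 (SE 0.11). Nme2, with 48.9% of its exon bases inside Gm20390, had 0.762 CPM, and Nme3, 99.7% inside other genes, was listed at 0.

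AMPK, the kinase that senses AMP, passed the litter test with 2 of 7 subunits, beside 32.1% of all genes. Its catalytic subunit Prkaa2 had 256 ± 0.844, 232 ± 23.0, 278 ± 20.8 and 201 ± 15.2 CPM (adjusted p = 0.00298), higher in litter 3 by 0.28 (SE 0.06) and lower in litter 4, at -0.34 (SE 0.06). Prkag3, a regulatory subunit of skeletal muscle, was lower in litter 3, at -0.80 (SE 0.19), and higher in litter 1 by 0.67 (SE 0.16), from a mean of 4.91 CPM. Of 9 other carriers and channels only Vdac3 passed (adjusted p = 0.0443), at -0.19 (SE 0.06) in litter 3. Slc25a3, the phosphate carrier, had a litter range of 0.04. Gamt, the tested gene of creatine synthesis, did not pass, and Cygb did, with a mean of 0.844 CPM. By sex, 0 of the 26 tested genes of these lists passed edgeR's test, with or without the litter block, and 0 passed in DESeq2. The number with an unadjusted p-value under 0.05 in edgeR was 1 without the block, where 306 of all 13771 tested genes had one. With the block it was 4, and the number over all genes was not counted, so these 4 cannot be set against it.

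Genes whose levels followed those of the 5 litter genes most closely over the 8 libraries were looked up among 8567 genes with a mean of at least 10 CPM. Mb was followed by Ddx39, Lmod3 and Hnrnpa2b1, with Pearson correlations of 0.994, 0.991 and 0.991. Ckm was followed by Emc10 (0.989), Pop5 (0.972) and Tmod1 (0.971), and Ckmt2 by Jade1 (0.985), Zbtb11 (0.979) and Zrsr2 (0.972). Ckb was followed by Pfkl (0.985), the liver-type phosphofructokinase gene, which ran from 77.1 to 165 CPM, and by Exosc8 (0.982) and Gm15543 (0.981). Ak4 was followed by Pam16 (0.980), Azin1 (0.978) and Gtf2f2 (0.973). These are the highest of many correlations over few libraries that share litters, and they are given as a description. Without litter 3, over 6 libraries, they were 0.942 to 0.990 except for Mb with Lmod3 (0.860) and Hnrnpa2b1 (0.847).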

How the data were processed

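RNA of purified cardiomyocytes was sequenced in 8 libraries. Per the labels' protocols, stranded total RNA libraries were made from 1 µg of RNA and read as single ends of 100 bases. The authors deposited raw counts of reads for each gene symbol in a single table. STAR 2.7.3a and build mm10 stand in the submitters' processing notes, and the counting program, annotation and strand setting are not given in the sources used here. No column belongs to another sample.

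Genes were filtered with filterByExpr on sex and scaled by TMM in edgeR 4.0.16 (R 4.3.3). Sex was tested by edgeR's quasi-likelihood F test without a block, and litter by the 3 litter coefficients in a model with sex, both over all 13771 genes with Benjamini-Hochberg adjustment at 0.05. Standard errors are the log2 fold change over the square root of F, and approximate 95% intervals follow from them under a normal distribution. These intervals are narrower than the F test with its few degrees of freedom would give. DESeq2 1.42.0, other scalings, no filter, omission of mitochondrial genes, a litter block and omission of libraries were alternatives. Exon lengths, overlaps and shared windows of 100 bases came from GENCODE M21 on GRCm38, and promoters from RefSeq. All genes of the set are named. 1 gene of a pathway list is not reported here. Of other pathway genes, up to 3 per list past the litter test are named with their values, and low or overlapping ones were added after their values were seen. Members and lists were chosen with earlier results of these data known.

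The labels state that a number is a litter, and the male and female of a litter correlated at 0.506, 0.503, 0.696 and 0.367 across genes after removal of sex means, against -0.482 to 0.27 for other pairs. No library repeated another of its sex within sampling noise (chi-square per degree of freedom 9.56 or more). Each library is 1 heart. In edgeR's sex test without a block, the spread is that between hearts of a sex, litter differences included, with 6 residual degrees of freedom. In edgeR's litter test, the spread is that between the male and female of a litter, after removal of a common sex difference. That leaves 3 residual degrees of freedom, so p-values of the litter and sex tests rest on different spreads. Scripts were tested on simulated data.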

Additional observations from a re-analysis of the deposited data

How the results depend on the processing

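Counts of genes and of the set kept within 1.5 times of their values under RLE, library size alone, no filter, DESeq2, omission of mitochondrial genes and, for litter, no sex term, and the litter block moved only the genes called by sex, from 6 to 29; it changed no call among the 9 genes. Leaving out libraries gave 5 to 7 genes by sex, and 0 of the set each time. For litter, leaving out a library or a litter gave 1898 to 4586 genes, with 1898 without litter 3, and 2 to 6 of the set, with 2 without litter 3 and 3 without its female; the cause was not tested. Added after seeing the data, the omission of litter 3 took the pathway genes past the litter test from 9 to 1. Without length correction the share of Slc25a4 was 89.2% and that of Ak1 97.0%, and with the longest transcript that of Slc25a4 was 84.1%, against 85.2% and 98.3%, because the lengths divide the counts. Leaving out libraries gave sex differences in log2 ratio of -0.09 to -0.04 for Slc25a4 to Slc25a5 and -0.17 to 0.16 for Ckm to Ckb. Sex differences not past the threshold also changed sign, from -0.18 to 0.08 for Ckmt2, -0.25 to 0.07 for Ckb, -0.06 to 0.03 for Ak1, -0.10 to 0.00 for Slc25a4, -0.05 to 0.06 for Slc25a5 and -0.13 to 0.15 for Mb. Ak4 has the fewest counts of the set, 190 in the female of litter 3, which limits its precision.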
